A study of Mus musculus with 8 samples.

Results

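Knockdown of Baf250A was compared directly with knockdown of Brd9 in proliferating C2C12 cells, a mouse myoblast line that grows as muscle precursors and fuses into myotubes once serum is withdrawn. The members are the 4 libraries that carry these 2 shRNAs, 2 per group, of 8 libraries in the series, and the scramble and Baf180 libraries entered neither the scaling nor the filter nor the test. All 4 came from C2C12 cells obtained from ATCC, kept sub-confluent in medium with calf serum, transduced with a lentivirus that carries the short hairpin RNA, and selected and then maintained in puromycin. The count table names 1 shRNA per target, so loss of the target and any other effect of that hairpin cannot be told apart. The labels do not state whether the replicates of a group were grown as separate cultures. The p-values therefore speak of the spread among these 4 libraries, which could be technical. The comparison asks which genes and functions separate loss of canonical BAF from loss of non-canonical BAF. It cannot say in which of the knockdowns a gene moved, since no control enters it.

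SWI/SNF (BAF) complexes are remodellers that use ATP to slide and evict nucleosomes. Canonical BAF (cBAF) contains an ARID1 subunit, usually Baf250A, the product of Arid1a, and is best known for keeping enhancers accessible. Non-canonical BAF (ncBAF) contains Brd9 and Bicra or Bicral, lacks the ARID subunits and Smarcb1, and is known from promoters and CTCF sites. Both are built around the same ATPases, Smarca4 or Smarca2. In muscle cells SWI/SNF enzymes are known to work with MyoD, the factor that commits cells to the muscle lineage by binding E-box sequences at muscle genes.

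Levels are given in CPM, each count set against its library's total after TMM scaling (trimmed mean of M-values, which corrects for composition), in the order replicate 1 and replicate 2. Every log2 fold change is Baf250A minus Brd9, so a positive value is higher in Baf250A knockdown and a negative value higher in Brd9 knockdown. Totals ran from 18148388 to 19101528 estimated counts per library, and 14524 to 14768 genes had a count. The targeted genes followed the labels. Brd9 (chromosome 13, 73937801 to 73960895, mm10) stood at 41.8 and 45.9 CPM in the Baf250A libraries and 8.15 and 7.52 CPM in the Brd9 libraries (log2 fold change 2.48, SE 0.20, adjusted p = 0.000219). Arid1a (chromosome 4, 133679008 to 133756769) stood at 72.7 and 68.1 CPM in the Baf250A libraries and 188 and 179 CPM in the Brd9 libraries (log2 fold change −1.38, SE 0.16, adjusted p = 0.00106). Each target was thus lower in both libraries labelled with its own shRNA than in both of the other group, by 5.59-fold for Brd9 and 2.61-fold for Arid1a. Without a control in the comparison, how far each shRNA reduced its target cannot be read from these values.

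A trend with transcript GC content set the libraries apart, even inside a group. Among the 1207 tested genes of lowest GC content (33.2 to 42.2%), Baf250A replicate 2 deviated from the 4-library mean by a median of 0.54 on the log2 scale and Brd9 replicate 2 by −0.46, and the replicate 1 libraries by 0.01 and −0.06. The median fold change there was 0.55, and it was −0.24 in the equally large group of highest GC content. Genes called higher in Baf250A knockdown had a median GC content of 45.7%, those called higher in Brd9 knockdown 54.0%, and all tested genes 50.5%. Offsets that remove each library's trend with GC content and gene length brought the medians of those groups to 0.03 and 0.13, and each list's counts of calls with these offsets are given beside its counts without them, in the same order of directions. Offsets also remove any real difference that follows GC content. The cause of the trend was not tested.

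**Figure D1:**
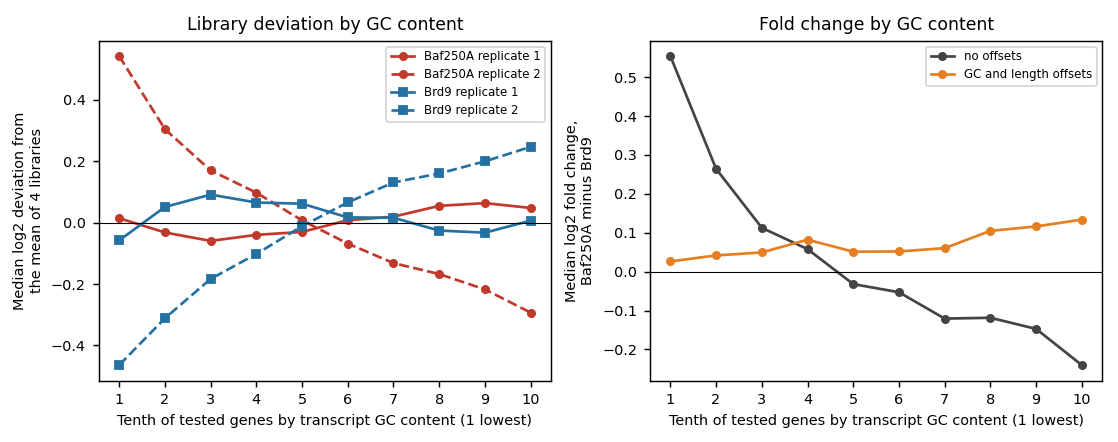
The left panel plots, for 10 bins of tested genes ordered by transcript GC content, the median log2 deviation of each library from the mean of the 4 libraries. The right panel plots the median log2 fold change (Baf250A minus Brd9) of the same bins without and with the GC and length offsets: both replicate 2 libraries follow GC content in opposite directions, and the trend of the fold change falls from 0.55 to −0.24 without offsets.

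Of 12185 genes tested, 2442 were called at an adjusted p below 0.05 in edgeR's quasi-likelihood test with Benjamini-Hochberg adjustment, which is 20.0% of them. Of these, 1000 were higher in Baf250A knockdown (8.21% of tested genes) and 1442 higher in Brd9 knockdown (11.8%). No called gene had overlapping groups: in each, both libraries of a group lay beyond both of the other. Groups did not overlap in 7526 genes (61.8% of those tested). Differences over 4-fold were unequally divided, with 121 called genes higher in Baf250A knockdown and 310 higher in Brd9 knockdown. With the offsets 5728 genes were called, 3303 higher in Baf250A knockdown (27.1%) and 2425 higher in Brd9 knockdown (19.9%). The balance of directions therefore turned over, from 41.0% of calls higher in Baf250A knockdown to 57.7%, and with library totals alone it was 30.4%. Of the calls without offsets, 2337 were called in the same direction with them and none in the opposite direction. With a library left out the number of calls lay between 1466 (without Baf250A replicate 2) and 2569 (without Baf250A replicate 1, where 1287 were higher in Baf250A knockdown and 1282 in Brd9 knockdown). Calls that also held whichever library was left out, and with the offsets, numbered 348 higher in Baf250A knockdown and 771 higher in Brd9 knockdown.

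The 12 largest called differences on the Baf250A side were taken among genes averaging 5 CPM or more over the 4 libraries, so that some genes of lower level with larger fold changes are not among them. Col2a1, the fibrillar collagen of cartilage, stood at 37.6 and 30 CPM in the Baf250A libraries and 0.311 and 0.167 CPM in the Brd9 libraries (log2 fold change 7.09, SE 0.35, adjusted p = 4.4e-05). It was near absent from both Brd9 libraries, with 6 and 3 counts. Coch, which encodes the matrix protein cochlin, stood at 11.4 and 10.3 CPM in the Baf250A libraries and 0.259 and 0.668 CPM in the Brd9 libraries (log2 fold change 4.55, SE 0.38, adjusted p = 0.000235). Slco4a1, an organic anion transporter, stood at 19.4 and 18.8 CPM in the Baf250A libraries and 0.934 and 0.724 CPM in the Brd9 libraries (log2 fold change 4.51, SE 0.27, adjusted p = 8.18e-05). Cck, the precursor of the peptide hormone cholecystokinin, stood at 86.3 and 67.9 CPM in the Baf250A libraries and 3.42 and 4.51 CPM in the Brd9 libraries (log2 fold change 4.28, SE 0.24, adjusted p = 7.96e-05). In each of these 4 genes both Baf250A libraries were far above both Brd9 libraries. Lrrc32, which holds latent TGF-beta at the cell surface, stood at 104 and 87.3 CPM in the Baf250A libraries and 8.82 and 10 CPM in the Brd9 libraries (log2 fold change 3.35, SE 0.20, adjusted p = 8.18e-05). Plac8 had a log2 fold change of 4.01 and Penk, the precursor of the enkephalin opioid peptides, of 3.05. Spry1, a feedback inhibitor of receptor tyrosine kinase signalling, had 2.89, and Rgs16, a brake on G protein signalling, had 2.83. Pi15 (2.74), Lama4, a laminin chain (2.69), and Il18rap, an accessory chain of the interleukin-18 receptor (2.61), completed the 12. Dkk2, an extracellular Wnt modulator, was among the 6 lowest p-values on this side, at 9.04 and 10.1 CPM in the Baf250A libraries and 0.156 and 0.334 CPM in the Brd9 libraries (log2 fold change 5.27, SE 0.38, adjusted p = 0.000164).

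The 12 largest called differences on the Brd9 side were taken by the same rule. St8sia2, the enzyme that adds polysialic acid to the adhesion molecule Ncam1, had 1 and 0 counts under Baf250A knockdown and 260 and 235 under Brd9 knockdown (ratio of counts 0.00205, exact 95% interval 5.19e-05 to 0.0115, counting error only). Stmn4, a stathmin that binds tubulin, had 0 and 2 counts under Baf250A knockdown and 261 and 213 under Brd9 knockdown (ratio of counts 0.00429, exact 95% interval 0.000518 to 0.0156). Both genes were thus close to silent in the Baf250A libraries. Igfbp2, a secreted binding protein of insulin-like growth factors, stood at 35.4 and 28.7 CPM in the Baf250A libraries and 674 and 735 CPM in the Brd9 libraries (log2 fold change −4.46, SE 0.20, adjusted p = 3.43e-05). Chrna1, the alpha subunit of the muscle acetylcholine receptor, stood at 17.4 and 16.8 CPM in the Baf250A libraries and 325 and 346 CPM in the Brd9 libraries (log2 fold change −4.29, SE 0.18, adjusted p = 3.43e-05). These 2 genes had the lowest p-values of the comparison, with 22-fold and 19.6-fold higher levels in Brd9 knockdown. Lrrn1, a leucine-rich repeat protein of the cell surface, had a log2 fold change of −4.76, Capn6, a calpain-like protein, −4.66, and Mycl, a member of the Myc family, −4.33. Sema6a, a transmembrane semaphorin, had −4.30, Pax7, the transcription factor of muscle stem cells, −4.26, and Enho, the precursor of the secreted peptide adropin, −4.26. Prelp, a small leucine-rich matrix proteoglycan (−3.94), and S100a16, a calcium-binding protein (−3.93), completed the 12. Tubb3, Osbp2 and Tppp3 joined them among the lowest p-values, at −3.51, −3.61 and −3.43.

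**Figure D2:**
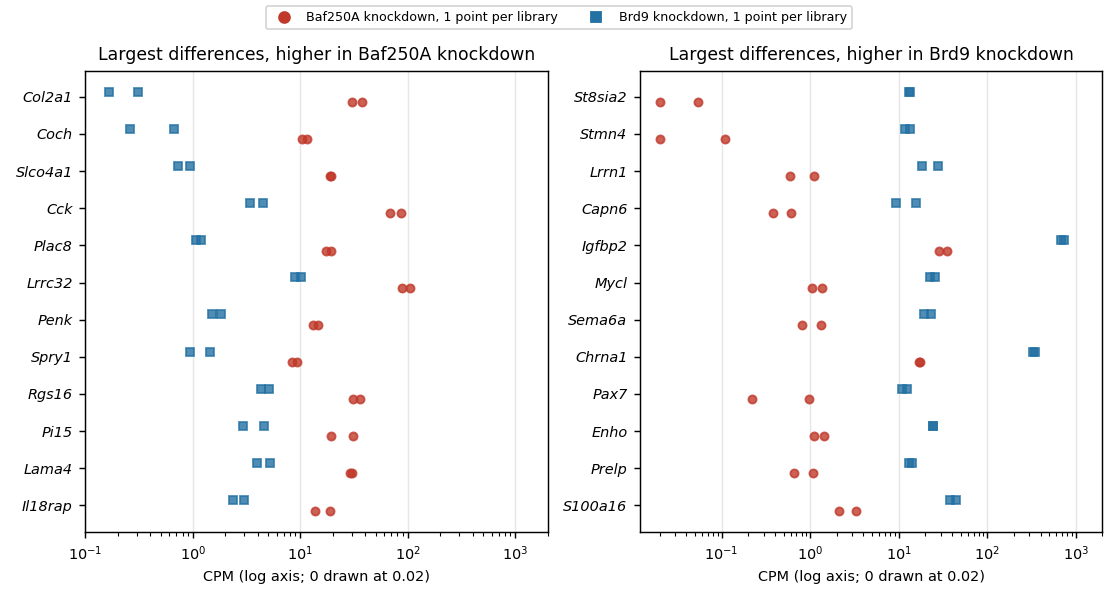
CPM in each library (log axis, a level of 0 drawn at 0.02) of the 12 genes with the largest called differences in each direction, with a circle per Baf250A library and a square per Brd9 library. No pair of groups overlaps, and St8sia2 and Stmn4 each have 1 Baf250A library with no count. Levels are not divided by gene length, so different genes cannot be compared with each other.

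Among lists with at least 10 tested members, that of neuronal cytoskeleton, adhesion and synaptic vesicle genes had the largest share of calls. Of 22 members tested, 17 were higher in Brd9 knockdown and 1 in Baf250A knockdown, and the median log2 fold change was −1.74, beside 0.01 over all tested genes. Only 22 of 54 listed members passed the filter on low counts, and a member low in both groups could not. With the offsets the counts were 17 and 2. Tubb3, the beta-tubulin of neurons, stood at 13.2 and 12 CPM in the Baf250A libraries and 131 and 158 CPM in the Brd9 libraries (log2 fold change −3.51, SE 0.20, adjusted p = 7.96e-05). Stmn2, a stathmin of growth cones, stood at 20.7 and 20.9 CPM in the Baf250A libraries and 115 and 119 CPM in the Brd9 libraries (log2 fold change −2.49, SE 0.17, adjusted p = 0.000142). Both were present in every library and lower in both Baf250A libraries, by 11.4-fold and 5.61-fold. Further members called higher in Brd9 knockdown were the microtubule-binding Map2 (0 and 1 counts under Baf250A knockdown and 69 and 32 under Brd9 knockdown), the adhesion molecule L1cam (log2 fold change −3.53), the growth cone protein Gap43 (−2.41), and the intermediate filament genes Nefl (−2.11) and Prph (−2.06). Ncam1, the protein that St8sia2 modifies, had −0.96. The exception was Rab3c, a vesicle GTPase, at 1.52 and 2.46 against 0.571 and 0.334 CPM (log2 fold change 2.11, SE 0.45, adjusted p = 0.0132).

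Genes that guide axons and also serve cell contacts elsewhere were split. Among 29 tested ligands 10 were higher in Brd9 knockdown and 5 in Baf250A knockdown, with a median of −0.41 (10 and 8 with the offsets). Sema6a was at 0.817 and 1.31 CPM in the Baf250A libraries and 22.9 and 19.3 CPM in the Brd9 libraries (log2 fold change −4.30, SE 0.30, adjusted p = 0.000137). Sema4f (−3.03), Sema3b (−1.91) and the ephrin Efna1 (−1.39) lay on the same side. The 5 ligands on the Baf250A side were all semaphorins, Sema3c (1.61), Sema5a (1.13), Sema3f (1.03), Sema7a (0.88) and Sema3a (0.87). The call of Sema3a was lost without Brd9 replicate 2 (adjusted p = 0.0873) and without Baf250A replicate 2 (adjusted p = 0.195), that of Sema3f without Brd9 replicate 1 (adjusted p = 0.115) and without Baf250A replicate 1 (adjusted p = 0.0649), and that of Sema7a without Brd9 replicate 1 (adjusted p = 0.06) and without Baf250A replicate 1 (adjusted p = 0.0515). Of 22 tested receptors 8 were higher in Brd9 knockdown and 1, the netrin receptor Unc5b, in Baf250A knockdown, a call lost without Brd9 replicate 1 (adjusted p = 0.202), without Baf250A replicate 1 (adjusted p = 0.209) and without Baf250A replicate 2 (adjusted p = 0.0952). Plexins, which are the receptors of semaphorins, included Plxnb1 (−1.74), Plxnd1 (−1.46) and Plxna4 (−2.55). Ephrin receptors included Epha4 (−2.46) and Ephb2 (−1.22). The median over receptors was −0.38, and with the offsets the counts were 10 and 4.

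Genes of the neuromuscular synapse, where the motor nerve meets the muscle fibre, were called in 1 direction only. Of 20 tested, 10 were higher in Brd9 knockdown and 0 in Baf250A knockdown, with a median of −0.77. With the offsets 12 were higher in Brd9 knockdown and 2 in Baf250A knockdown, and with each library left out the calls higher in Brd9 knockdown numbered between 8 (without Baf250A replicate 1) and 9 (without Brd9 replicate 1). The calls covered all 4 subunits of the acetylcholine receptor that passed the filter. Chrna1 has its values above. Chrnd, the delta subunit, stood at 1.69 and 1.48 CPM in the Baf250A libraries and 14.7 and 16 CPM in the Brd9 libraries (log2 fold change −3.27, SE 0.25, adjusted p = 0.000202). Chrng, the gamma subunit of the foetal receptor, had 1 and 1 counts under Baf250A knockdown and 85 and 115 under Brd9 knockdown (ratio of counts 0.0102, exact 95% interval 0.00122 to 0.0372). Chrnb1, the beta subunit, differed less, at 21 and 24.6 against 39.2 and 38.1 CPM (log2 fold change −0.76). The receptor subunits were thus lower in Baf250A knockdown by amounts from 1.69-fold for Chrnb1 to 19.6-fold for Chrna1, with Chrng nearly uncounted there. Upstream of the receptors the agrin pathway showed the same direction. Agrn, the nerve and muscle signal that clusters receptors, had a log2 fold change of −1.39, its co-receptor Lrp4 −0.85, and the kinase Musk −2.14 (2.56 and 3.07 against 13.6 and 11.2 CPM). The adaptors Dok7 (−2.13) and Rapsn (−0.78), which tie Musk to receptor clusters, and the neuregulin receptor Erbb3 (−2.07) followed. The call of Rapsn was lost without Brd9 replicate 2 (adjusted p = 0.148) and without Baf250A replicate 2 (adjusted p = 0.198), that of Chrnb1 without Brd9 replicate 1 (adjusted p = 0.0633), without Brd9 replicate 2 (adjusted p = 0.0774), without Baf250A replicate 1 (adjusted p = 0.139) and without Baf250A replicate 2 (adjusted p = 0.0532), that of Lrp4 without Baf250A replicate 2 (adjusted p = 0.114), and that of Erbb3 without Baf250A replicate 1 (adjusted p = 0.0538).

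The promoters of several of these genes carry the E-box CAGCTG, a form that MyoD is known to bind. Some are printed because most called genes of the synapse and sarcomere lists lay on the Brd9 side. RefSeq's table for GRCm38.p6, the assembly that mm10 also denotes, held a promoter for 9713 of the tested genes, and the 250 bases before the start were searched for CAGCTG, which reads the same on both strands. It was present in 14.1% of those 9713, in 13.0% of genes called higher in Baf250A knockdown and in 21.1% of genes called higher in Brd9 knockdown. Where the table gives several starts for a gene, a match at any of them counted. Among neuromuscular synapse genes with an entry 5 of 12 held it (Chrna1, Chrng and Musk, which were called higher in Brd9 knockdown, and 2 genes that were not called), among sarcomere genes 10 of 23, among neuronal genes 4 of 12, among matrix protease genes 6 of 18, and among satellite cell genes 0 of 15. The motif was chosen after the values were seen, and a match is a description of the letters only. The sequences below run 5′ to 3′ on the gene's strand up to the base before the start, with the E-box in capitals. They are Chrna1 (chr2:73580339-73580588, minus strand), Chrng (chr1:87205561-87205810, plus strand), Musk (chr4:58285712-58285961, plus strand) and Atp2a1 (chr7:126463074-126463323, minus strand). The starts of Musk and Atp2a1 in this table lie inside the annotated span of the gene.
Chrna1: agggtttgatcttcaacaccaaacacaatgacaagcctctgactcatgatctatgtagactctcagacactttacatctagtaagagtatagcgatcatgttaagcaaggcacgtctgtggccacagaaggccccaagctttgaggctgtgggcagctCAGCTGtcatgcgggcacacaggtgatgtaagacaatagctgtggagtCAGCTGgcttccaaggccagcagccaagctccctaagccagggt
Chrng: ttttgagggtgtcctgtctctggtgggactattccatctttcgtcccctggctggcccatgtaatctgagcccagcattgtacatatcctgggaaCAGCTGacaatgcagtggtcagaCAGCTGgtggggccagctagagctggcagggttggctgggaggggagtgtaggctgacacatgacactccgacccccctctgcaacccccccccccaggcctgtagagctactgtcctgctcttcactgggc
Musk: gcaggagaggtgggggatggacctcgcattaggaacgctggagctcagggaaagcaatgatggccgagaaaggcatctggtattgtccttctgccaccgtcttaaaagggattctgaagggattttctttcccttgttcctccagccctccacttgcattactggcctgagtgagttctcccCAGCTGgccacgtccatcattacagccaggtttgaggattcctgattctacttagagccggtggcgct
Atp2a1: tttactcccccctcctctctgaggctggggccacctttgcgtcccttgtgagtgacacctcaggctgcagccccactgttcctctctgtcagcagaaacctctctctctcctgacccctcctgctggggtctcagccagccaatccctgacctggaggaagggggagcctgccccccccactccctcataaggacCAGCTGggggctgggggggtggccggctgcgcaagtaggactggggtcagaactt
The 2 matches of Chrna1 begin 92 and 44 bases before the start, those of Chrng 155 and 132, that of Musk 68 and that of Atp2a1 55. Of the sarcomere genes with the E-box, Mylpf, Klhl41, Atp2a1, Jph2 and Synpo2l were called higher in Brd9 knockdown. Tnnt2 and Acta1 were called higher in Baf250A knockdown, and Tpm2, Tpm3 and Des were not called. Of the neuronal genes with it, Rab3a, Cplx2 and Ngfr were called higher in Brd9 knockdown and Rab3c in Baf250A knockdown.

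Satellite cells are the stem cells of muscle, and C2C12 cells descend from them. Of 24 tested satellite cell genes 12 were higher in Brd9 knockdown and 2 in Baf250A knockdown, with a median of −0.51. With the offsets the counts were 13 and 7. Pax7, their defining transcription factor, stood at 0.98 and 0.219 CPM in the Baf250A libraries and 12.5 and 10.9 CPM in the Brd9 libraries (log2 fold change −4.26, SE 0.45, adjusted p = 0.000646). Cdh15, the muscle cadherin that joins satellite cells to fibres, stood at 37.1 and 27.8 CPM in the Baf250A libraries and 150.1 and 201 CPM in the Brd9 libraries (log2 fold change −2.43, SE 0.22, adjusted p = 0.000343). Itga7, a laminin-binding integrin of myoblasts, stood at 81.4 and 63.4 CPM in the Baf250A libraries and 196 and 245 CPM in the Brd9 libraries (log2 fold change −1.60, SE 0.20, adjusted p = 0.00132). All 3 were lower in both Baf250A libraries. Fgfr4, a fibroblast growth factor receptor of myoblasts, had a log2 fold change of −2.58, and the Notch effectors Heyl and Hey1 had −2.11 and −1.88. On the other side lay Spry1 (8.33 and 9.37 against 0.934 and 1.45 CPM), which is known to hold satellite cells in quiescence, and the surface protein Cd34 (0.65). Cd34 lost its call without Brd9 replicate 1 (adjusted p = 0.0871), without Brd9 replicate 2 (adjusted p = 0.304), without Baf250A replicate 1 (adjusted p = 0.0744) and without Baf250A replicate 2 (adjusted p = 0.259).

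Of the transcription factors that set muscle identity, Myod1 and Myf5 were not called and Myog was. Myod1 stood at 139 and 107 CPM in the Baf250A libraries and 153 and 193 CPM in the Brd9 libraries (log2 fold change −0.49, adjusted p = 0.116) and was not called. Myf5, the other factor of committed myoblasts, stood at 12.9 and 16.8 CPM in the Baf250A libraries and 26.1 and 19.3 CPM in the Brd9 libraries (log2 fold change −0.61, adjusted p = 0.101) and was not called without offsets. With the offsets Myf5 was called (log2 fold change −1.01), and the fold change of Myod1 was −0.14 and not called. Myog, the factor of terminal differentiation, was at low levels in proliferating cells and was called higher in Brd9 knockdown, at 0.109 and 0.383 against 0.882 and 1.62 CPM (log2 fold change −2.31, SE 0.60, adjusted p = 0.0288). Of 35 tested regulators 6 were higher in Brd9 knockdown and 1 in Baf250A knockdown, with a median of 0.03. With the offsets the balance turned over, to 15 higher in Baf250A knockdown and 9 in Brd9 knockdown (median 0.23). All tested genes turned over too, from 8.21% (Baf250A side) and 11.8% (Brd9 side) to 27.1% and 19.9%. Msc, which encodes the MyoD antagonist musculin, had 0 and 0 counts under Baf250A knockdown and 41 and 51 under Brd9 knockdown, at least 15.2-fold lower against a floor of 3 counts per library. Mymk, the membrane protein that drives myoblast fusion, had 1 and 3 counts under Baf250A knockdown and 34 and 42 under Brd9 knockdown (log2 fold change −4.15, SE 0.54, adjusted p = 0.00173). Tead2, a partner of YAP, had a log2 fold change of −1.42 and Bhlhe41 of −1.39. The regulator on the Baf250A side was Bhlhe40 (0.93), so these closely related repressors lay on opposite sides.

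Sarcomere genes encode the contractile apparatus and the calcium stores that trigger it. Of 33 tested members, from 72 listed, 20 were higher in Brd9 knockdown and 3 in Baf250A knockdown, with a median of −1.25. The counts with offsets were 20 and 6. Actn3, the alpha-actinin of fast fibres, stood at 6.1 and 4.6 CPM in the Baf250A libraries and 60.2 and 73 CPM in the Brd9 libraries (log2 fold change −3.64, SE 0.23, adjusted p = 0.000106). Synpo2l, a Z-disc protein, stood at 0.327 and 0.383 CPM in the Baf250A libraries and 7.32 and 7.24 CPM in the Brd9 libraries (log2 fold change −4.33, SE 0.33, adjusted p = 0.000202). Cacng1, a subunit of the muscle calcium channel, stood at 8.71 and 6.02 CPM in the Baf250A libraries and 44 and 55.1 CPM in the Brd9 libraries (log2 fold change −2.75, SE 0.25, adjusted p = 0.000335). Each of these was several-fold higher in both Brd9 libraries. Excitation and calcium release were represented by Jsrp1 (−3.74), the release channel Ryr1 (−1.90), the calcium pump Atp2a1 (−2.70) and the junctophilin Jph2 (−1.23). Filament genes included the myomesin Myom2 (−3.06) and Mylpf, a regulatory light chain (−1.72). The embryonic myosin Myh3 had 1 and 1 counts under Baf250A knockdown and 12 and 17 under Brd9 knockdown. The exceptions on the Baf250A side were Acta1, skeletal alpha-actin, at 44.5 and 37.4 against 10.1 and 14.7 CPM (log2 fold change 1.73, SE 0.24, adjusted p = 0.00214), the cardiac troponin Tnnt2, at 49.3 and 46.6 against 15.2 and 16.9 CPM (log2 fold change 1.58, SE 0.19, adjusted p = 0.00114), and the ubiquitin ligase subunit Fbxo32 (1.23). Each held with every library left out and with the offsets.

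**Figure D3:**
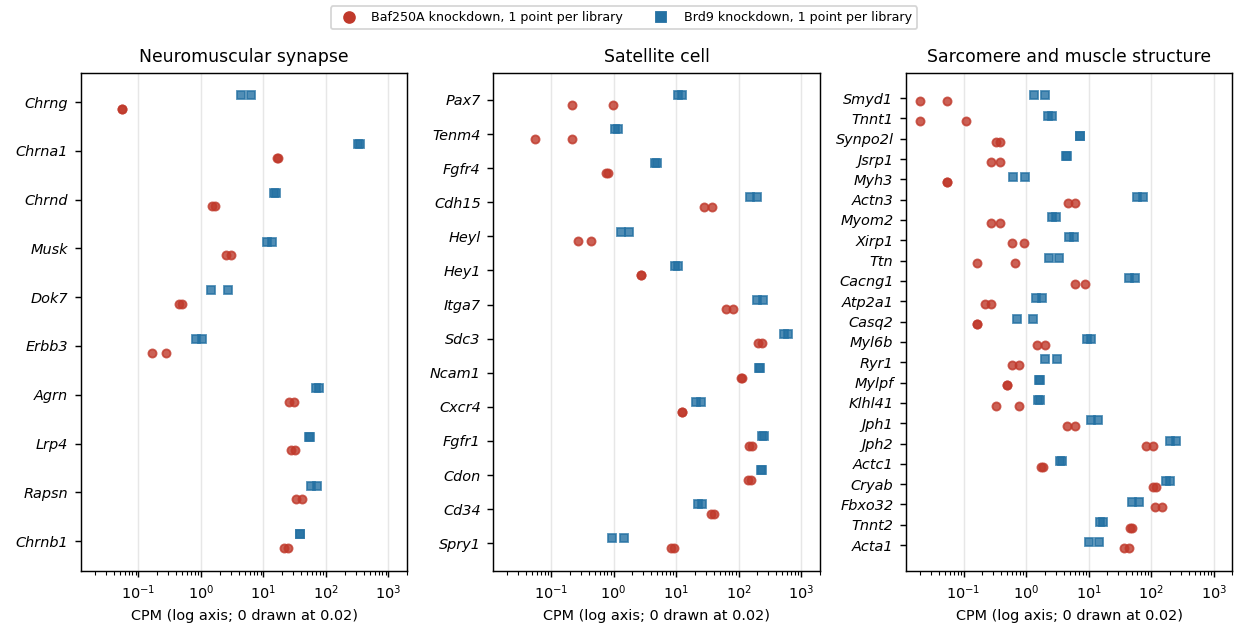
CPM in each library (log axis, a level of 0 drawn at 0.02) of every called member of the neuromuscular synapse, satellite cell and sarcomere lists, ordered by fold change, with a circle per Baf250A library and a square per Brd9 library. Squares lie to the right in all but the lowest few genes of the second and last panels, which are Cd34, Spry1, Fbxo32, Tnnt2 and Acta1.

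The dystrophin glycoprotein complex links the cytoskeleton of muscle to laminin outside the cell. Of 19 tested members 4 were higher in Brd9 knockdown and 0 in Baf250A knockdown, with a median of −0.37 (7 and 1 with the offsets). Sgca, alpha-sarcoglycan, stood at 0.817 and 0.822 CPM in the Baf250A libraries and 10.2 and 9.3 CPM in the Brd9 libraries (log2 fold change −3.56, SE 0.28, adjusted p = 0.000219). Lama2, the laminin chain of muscle basement membrane that the complex binds, stood at 3.59 and 4.49 CPM in the Baf250A libraries and 31.6 and 25.6 CPM in the Brd9 libraries (log2 fold change −2.82, SE 0.24, adjusted p = 0.000278). Sgcb had a log2 fold change of −1.14 and Sspn, sarcospan, −0.65, the latter lost without Brd9 replicate 1 (adjusted p = 0.246), without Brd9 replicate 2 (adjusted p = 0.0658), without Baf250A replicate 1 (adjusted p = 0.122) and without Baf250A replicate 2 (adjusted p = 0.213). The smooth muscle list showed no such direction, with 5 of 28 higher in Baf250A knockdown and 4 higher in Brd9 knockdown (median 0.07). With the offsets these counts were 16 and 6. Tagln, a calponin-family protein of smooth muscle, stood at 1502 and 1358 CPM in the Baf250A libraries and 599 and 744 CPM in the Brd9 libraries (log2 fold change 1.09, SE 0.18, adjusted p = 0.00459), and Myh11, smooth muscle myosin, at 3.1 and 3.56 against 0.156 and 0.278 CPM (log2 fold change 3.91, SE 0.42, adjusted p = 0.00072). Pdlim3 lay on the Brd9 side (−2.25).

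Markers of cell types were read to see what the cultures held. In bulk RNA fewer cells of a type and less RNA per cell cannot be told apart. All 6 myoblast markers were counted, with summed levels of 1072 and 813 CPM in the Baf250A libraries and 1264 and 1707 CPM in the Brd9 libraries. These sums were mostly Des, which was not called, and 3 of the 6 (Cdh15, Pax7 and Itga7) were higher in Brd9 knockdown. Of 7 myotube markers 4 passed the filter, and the sum over all 7, 45.3 and 38.8 against 13.6 and 20 CPM, was mostly Acta1, while Ckm had at most 10 counts in any library. Of 8 neuron markers 5 were tested and all 5 were higher in Brd9 knockdown (sums over all 8 90.2 and 81.5 against 364 and 406 CPM), yet Elavl4 and Snap25 had no count and Elavl3 at most 1. Of 5 smooth muscle markers 3 were higher in Baf250A knockdown (Cnn1, Myh11 and Actg2), with sums of 10921 and 9045 against 5712 and 7040.2 CPM. The sums were mostly Acta2, which was not called (174479 and 143358 against 98049 and 111554 counts). Lmod1, also not called, had 517 and 452 against 705 and 766 counts. The call of Cnn1 was lost without Brd9 replicate 1 (adjusted p = 0.233), without Brd9 replicate 2 (adjusted p = 0.0708), without Baf250A replicate 1 (adjusted p = 0.168) and without Baf250A replicate 2 (adjusted p = 0.15), and that of Actg2 without Brd9 replicate 1 (adjusted p = 0.0507). Col2a1 was the 1 chondrocyte marker called of 5, and Acan had at most 1 count and Cnmd none. Sox10, Foxd3, Epcam, Adgre1 and Tyrobp had no count in any of the 4 libraries, and the 4 endothelial markers summed to under 1 CPM in each. The part of other cell types in the fold changes of muscle and neuronal genes was not tested.

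Matrix genes were divided, with more calls on the Brd9 side. For elastic fibre, fibulin and proteoglycan genes the counts were 13 of 37 higher in Brd9 knockdown and 4 in Baf250A knockdown (median −0.35, 15 and 8 with the offsets), and for matrix proteases and their inhibitors 9 and 3 of 29 (median −0.30, 12 and 9 with the offsets). Fbln7, a fibulin, stood at 1.25 and 0.822 CPM in the Baf250A libraries and 14.2 and 14.1 CPM in the Brd9 libraries (log2 fold change −3.76, SE 0.29, adjusted p = 0.000202). Adamts4, a protease that cleaves proteoglycans, stood at 6.64 and 5.91 CPM in the Baf250A libraries and 52.8 and 51.7 CPM in the Brd9 libraries (log2 fold change −3.05, SE 0.20, adjusted p = 0.000115). Cspg4, the NG2 proteoglycan, had a log2 fold change of −2.15, the collagen crosslinker Loxl2 −1.90 and the membrane protease Mmp15 −2.67. Timp1, an inhibitor of metalloproteases, was higher in Baf250A knockdown, at 762 and 674 against 308 and 349.6 CPM (log2 fold change 1.13, SE 0.17, adjusted p = 0.00291). Collagens (3 and 5 of 24 on the Baf250A and Brd9 sides, 8 and 6 with the offsets) paired the cartilage genes Col2a1 and Col11a1 (2.07) against Col8a2 (−3.35) and Col5a3 (−2.88). Laminins did likewise, with Lama4 and Lamc3 (40 and 36 counts under Baf250A knockdown and 2 and 1 under Brd9 knockdown) against Lama2. Among matricellular proteins (4 and 8 of 22, 5 and 8 with the offsets), Spp1, osteopontin, stood at 3026 and 3975 CPM in the Baf250A libraries and 1221 and 840.2 CPM in the Brd9 libraries (log2 fold change 1.76, SE 0.23, adjusted p = 0.00175), and Thbs1, thrombospondin, at 335 and 394 CPM in the Baf250A libraries and 1372 and 1024 CPM in the Brd9 libraries (log2 fold change −1.72, SE 0.20, adjusted p = 0.000987). The bone and cartilage list had 8 of 23 higher in Baf250A knockdown and 3 higher in Brd9 knockdown (median 0.31, 10 and 3 with the offsets). Its Brd9 side held Alpl, the phosphatase of mineralising cells (−2.72), the tendon factor Scx (−1.17) and Msx2 (−3.05), while Msx1 lay on the Baf250A side (1.14).

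In the Notch pathway, which keeps muscle progenitors undifferentiated, receptors and genes listed as targets were called mostly on the Brd9 side. Of the ligands Dll1 was called, at low levels (0.381 and 0.274 against 1.87 and 1.28 CPM, log2 fold change −2.25, SE 0.45, adjusted p = 0.0105). Notch3 stood at 49.7 and 39.6 CPM in the Baf250A libraries and 173 and 198 CPM in the Brd9 libraries (log2 fold change −2.06, SE 0.19, adjusted p = 0.000343). Notch1 differed less, at 45.3 and 40.3 against 72.5 and 77 CPM (log2 fold change −0.80, SE 0.17, adjusted p = 0.0137), and lost its call without Brd9 replicate 2 (adjusted p = 0.0591) and without Baf250A replicate 2 (adjusted p = 0.122). Lfng, the glycosyltransferase that tunes ligand choice, had a log2 fold change of −1.34. In all 6 of 21 receptors and modifiers were higher in Brd9 knockdown and 2 in Baf250A knockdown (median −0.14), and with the offsets 5 and 5. Of 7 tested genes listed as targets 3 were higher in Brd9 knockdown and 0 in Baf250A knockdown (median −1.08), and 4 and 0 were with the offsets. The 3 were Hes6 (−1.78), Hey1 and Heyl. Whether Hes6 answers to Notch in these cells was not tested.

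Genes of Wnt signalling were called on both sides. Dkk2 has its values above. Notum, an enzyme that inactivates Wnt ligands, stood at 6.81 and 4.98 CPM in the Baf250A libraries and 1.35 and 1.17 CPM in the Brd9 libraries (log2 fold change 2.22, SE 0.30, adjusted p = 0.0021). Rnf43, a ligase that removes Wnt receptors, had 12 and 11 counts under Baf250A knockdown and 0 and 1 under Brd9 knockdown (ratio of counts 0.0428, exact 95% interval 0.00104 to 0.263). These lay on the Baf250A side, and Dkk3 (−1.80) and Kremen1, a Dkk receptor (−0.94), on the Brd9 side, with 4 and 4 of 28 receptors and modulators called (8 and 9 with the offsets). Without offsets that was 14.3% on each side, beside 8.21% (Baf250A side) and 11.8% (Brd9 side) of all tested genes. With the offsets the shares over all tested genes were 27.1% and 19.9%. Kremen1 lost its call without Baf250A replicate 2 (adjusted p = 0.051). Of 10 ligands 2 and 2 were called (20.0% on each side, and 3 and 2 genes with the offsets), Wnt6 (1.36) and Wnt10a (0.85) against Wnt7b (−2.50) and Wnt9a (−1.40). Wnt10a lost its call without Brd9 replicate 1 (adjusted p = 0.0596) and without Baf250A replicate 1 (adjusted p = 0.0838), and Wnt6 without Brd9 replicate 2 (adjusted p = 0.0768). Among 14 target genes 4 were higher in Baf250A knockdown and 2 in Brd9 knockdown, with a median of 0.47 (8 and 2 with the offsets).

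BMP and TGF-beta genes were likewise divided by gene. Bmp4 stood at 65.1 and 70 CPM in the Baf250A libraries and 27.1 and 17.5 CPM in the Brd9 libraries (log2 fold change 1.60, SE 0.23, adjusted p = 0.00267). The BMP antagonist Grem1 stood at 143 and 204 CPM in the Baf250A libraries and 44 and 34.1 CPM in the Brd9 libraries (log2 fold change 2.15, SE 0.23, adjusted p = 0.000679). Bmp4 and its antagonist were thus higher in Baf250A knockdown together. Bmper, another extracellular BMP modulator, had 1.35. Tgfb1 (−1.31), Gdf15 (−2.17) and the signal transducer Smad3 (−1.26) lay on the Brd9 side. Of 21 target genes 4 were higher in Baf250A knockdown and 2 in Brd9 knockdown (median 0.36, and 11 and 2 with offsets).

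Growth factor ligands and their receptors were called in unequal directions. Of 27 tested ligands of the FGF, PDGF and EGF type 6 were higher in Baf250A knockdown and 2 in Brd9 knockdown (median 0.31, 9 and 4 with the offsets). Ereg, an EGF receptor ligand, stood at 40.6 and 56.5 CPM in the Baf250A libraries and 16.3 and 8.91 CPM in the Brd9 libraries (log2 fold change 1.94, SE 0.30, adjusted p = 0.00394). Fgf10 had a log2 fold change of 1.49, Fgf2 of 2.11 and Angpt1, an endothelial growth factor, of 1.66. Gas6, the ligand of Axl-family receptors, lay on the Brd9 side (3.98 and 2.85 against 21.8 and 21.6 CPM, log2 fold change −2.66, SE 0.24, adjusted p = 0.000343). Of 22 receptor tyrosine kinases 8 were higher in Brd9 knockdown and 2 in Baf250A knockdown (median −0.38, 8 and 5 with the offsets). The former included Ret (−2.42), Fgfr4 and Musk, and the latter were Pdgfrb, the PDGF receptor, at 591 and 505 against 285 and 299 CPM (log2 fold change 0.91, SE 0.16, adjusted p = 0.00709), and Egfr (1.01). Feedback genes of the ERK pathway were balanced in number, at 7 and 6 of 43 on the Baf250A and Brd9 sides, and 19 and 7 with the offsets. Spry1 and Spry4 (1.85) were higher in Baf250A knockdown, as was the ERK phosphatase Dusp6 (0.89), whose call was lost without Brd9 replicate 2 (adjusted p = 0.0582). In the insulin-like growth factor system 2 and 5 of 19 genes were called on the Baf250A and Brd9 sides (median −0.05, 8 and 5 with the offsets), and binding proteins were called on both. Igfbp5 stood at 30.9 and 31.5 CPM in the Baf250A libraries and 242 and 181 CPM in the Brd9 libraries (log2 fold change −2.76, SE 0.20, adjusted p = 0.000168), and Igfbp3 had a log2 fold change of −1.58, both on the side of Igfbp2. Igfbp4 (0.99) and Igfbp7 (0.62) were higher in Baf250A knockdown, a call lost by Igfbp4 without Brd9 replicate 1 (adjusted p = 0.0512) and without Brd9 replicate 2 (adjusted p = 0.0832) and by Igfbp7 without Brd9 replicate 1 (adjusted p = 0.0767), without Brd9 replicate 2 (adjusted p = 0.189), without Baf250A replicate 1 (adjusted p = 0.219) and without Baf250A replicate 2 (adjusted p = 0.139). The ligand Igf2, at 5.88 and 7.28 against 3.74 and 4.23 CPM, was not called (log2 fold change 0.72, adjusted p = 0.0722). With the offsets it was (log2 fold change 0.98).

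Chemokines and cytokines formed the list with the largest share of calls on the Baf250A side. Of 28 tested members 18 were higher in Baf250A knockdown and 1 in Brd9 knockdown, with a median of 1.12. With the offsets the counts were 20 and 1, and with each library left out the calls higher in Baf250A knockdown numbered between 12 (without Brd9 replicate 2) and 16 (without Brd9 replicate 1). Ccl2, which attracts monocytes, stood at 245 and 327 CPM in the Baf250A libraries and 72.8 and 51.7 CPM in the Brd9 libraries (log2 fold change 2.20, SE 0.23, adjusted p = 0.000592). Ccl7, its neighbour in function, stood at 136 and 159 CPM in the Baf250A libraries and 48.8 and 46.8 CPM in the Brd9 libraries (log2 fold change 1.63, SE 0.17, adjusted p = 0.000679). Ccl9 stood at 17.3 and 18.9 CPM in the Baf250A libraries and 3.37 and 3.01 CPM in the Brd9 libraries (log2 fold change 2.50, SE 0.23, adjusted p = 0.000343). These 3 chemokines were several-fold higher in both Baf250A libraries. Lif, an interleukin-6 family cytokine that myoblasts secrete, stood at 25.9 and 25.2 CPM in the Baf250A libraries and 5.03 and 5.35 CPM in the Brd9 libraries (log2 fold change 2.30, SE 0.21, adjusted p = 0.000343). Il6 itself had a log2 fold change of 2.27, the alarmin Il33 2.12 and the interleukin-1 antagonist Il1rn 1.49. Tnfsf11, the osteoclast factor RANKL, had 28 and 30 counts under Baf250A knockdown and 0 and 0 under Brd9 knockdown, at least 9.81-fold higher in Baf250A knockdown. Its decoy receptor Tnfrsf11b, osteoprotegerin, was on the same side at 4.79 and 6.57 against 0.363 and 0.111 CPM (log2 fold change 4.52, SE 0.46, adjusted p = 0.000551). Il18 was the exception, at 0.49 and 0.548 against 3.53 and 2.95 CPM (log2 fold change −2.63, SE 0.35, adjusted p = 0.00183). The receptors were less one-sided, with 7 and 4 of 32 on the Baf250A and Brd9 sides (12 and 8 with the offsets). Il4ra, a receptor chain of interleukins 4 and 13, was among the former (1.59), as was Il1rl1, the receptor of Il33 (2.02). Ptgs2, the inducible cyclooxygenase, lay with them at 157 and 213 against 60.6 and 46.8 CPM (log2 fold change 1.79, SE 0.22, adjusted p = 0.0012).

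The AP-1 site TGACTCA was searched in the same promoter windows on both strands, since cytokine genes are known to carry it. It was present in 3.93% of all 9713 promoters, in 3.83% of those of genes called higher in Baf250A knockdown and in 5.08% of those called higher in Brd9 knockdown. Among chemokine and cytokine genes 5 of 19 held it, Lif, Il1rn, Il6, Il16 and Il11, of which all but Il11 were called higher in Baf250A knockdown. The E-box CAGCTG was also in 5 of these 19. The 3 promoters printed were chosen after the values were seen and run 5′ to 3′ on the gene's strand, with the site in capitals: Lif (chr11:4257318-4257567), Il1rn (chr2:24336610-24336859) and Il6 (chr5:30012864-30013113), all on the plus strand of GRCm38.p6.
Lif: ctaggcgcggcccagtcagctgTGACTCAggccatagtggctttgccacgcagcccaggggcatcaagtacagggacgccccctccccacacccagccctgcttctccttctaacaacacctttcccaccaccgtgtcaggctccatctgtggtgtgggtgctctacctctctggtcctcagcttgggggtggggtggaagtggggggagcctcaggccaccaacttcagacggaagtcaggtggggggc
Il1rn: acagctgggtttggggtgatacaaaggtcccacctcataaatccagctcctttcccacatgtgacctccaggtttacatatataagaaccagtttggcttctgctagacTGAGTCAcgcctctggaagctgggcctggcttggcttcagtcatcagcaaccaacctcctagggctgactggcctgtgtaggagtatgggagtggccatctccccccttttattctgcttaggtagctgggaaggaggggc
Il6: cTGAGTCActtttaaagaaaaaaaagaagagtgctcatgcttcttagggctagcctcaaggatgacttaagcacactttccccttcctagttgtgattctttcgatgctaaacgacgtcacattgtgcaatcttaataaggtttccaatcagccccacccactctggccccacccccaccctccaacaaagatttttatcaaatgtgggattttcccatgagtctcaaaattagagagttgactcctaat
The sites begin 228, 141 and 249 bases before the start. AP-1 subunits themselves had 1 and 4 of 14 called on the Baf250A and Brd9 sides, and 6 and 4 with the offsets. The balance over all tested genes turned over likewise, from 8.21% and 11.8% to 27.1% and 19.9%.

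**Figure D4:**
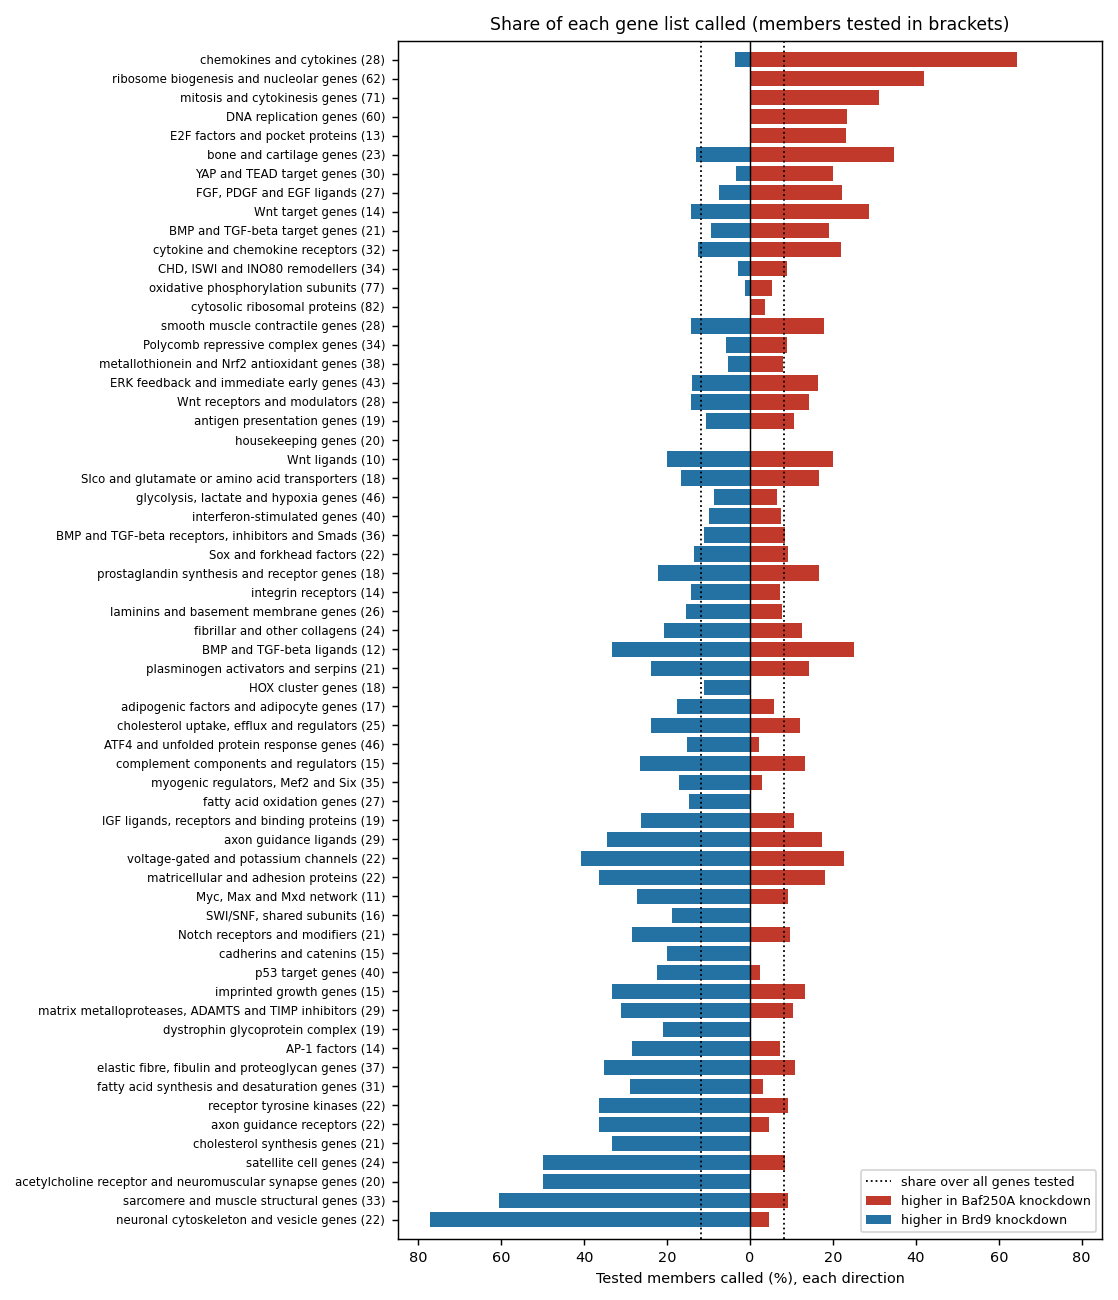
Share of the tested members of each gene list with at least 10 tested members that was called higher in Baf250A knockdown (bars to the right) and higher in Brd9 knockdown (bars to the left), with dotted lines at the shares over all tested genes (8.21% and 11.8%). Neuronal, sarcomere, neuromuscular and satellite cell lists extend furthest to the left, and chemokines and cytokines, at 64.3%, furthest to the right.

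Genes of ribosome biogenesis, DNA replication and mitosis were, without offsets, called on the Baf250A side only. Of 62 tested genes for ribosome biogenesis and the nucleolus 26 were higher in Baf250A knockdown and 0 in Brd9 knockdown, with a median of 0.57. With the offsets these were 55 and 0. With each library left out the number higher in Baf250A knockdown lay between 12 (without Baf250A replicate 2) and 16 (without Brd9 replicate 2). Dkc1, the pseudouridine synthase of ribosomal RNA, stood at 89.8 and 119 CPM in the Baf250A libraries and 40.3 and 36.8 CPM in the Brd9 libraries (log2 fold change 1.44, SE 0.20, adjusted p = 0.00203). Npm1, nucleophosmin, stood at 943 and 1392 CPM in the Baf250A libraries and 533 and 449 CPM in the Brd9 libraries (log2 fold change 1.25, SE 0.22, adjusted p = 0.00588), and Nop58, a core protein of snoRNA particles, had a log2 fold change of 1.27. Both Baf250A libraries were above both Brd9 libraries, and Baf250A replicate 2 was the highest of the 4. Of 82 cytosolic ribosomal proteins 3 were higher in Baf250A knockdown and 0 in Brd9 knockdown (median 0.23), and with the offsets 31 and 0. Without offsets that was 3.66% on the Baf250A side, below the 8.21% of all tested genes. With the offsets 27.1% of all tested genes were called on that side. Myc, a regulator of ribosome production, stood at 139 and 133 CPM in the Baf250A libraries and 92.8 and 88.4 CPM in the Brd9 libraries (log2 fold change 0.59, SE 0.16, adjusted p = 0.0339), and its call was lost without Brd9 replicate 1 (adjusted p = 0.143), without Brd9 replicate 2 (adjusted p = 0.23), without Baf250A replicate 1 (adjusted p = 0.174) and without Baf250A replicate 2 (adjusted p = 0.204). Its antagonists Mxi1 (−0.89) and Mxd4 (−0.96) lay on the Brd9 side, but lost their calls, Mxi1 without Brd9 replicate 1 (adjusted p = 0.0862) and without Baf250A replicate 1 (adjusted p = 0.0805) and Mxd4 without Baf250A replicate 2 (adjusted p = 0.172). Mycl, of the Myc family itself, was also on the Brd9 side, with a larger difference (−4.33). In all 1 of 11 genes of the Myc, Max and Mxd network was higher in Baf250A knockdown and 3 in Brd9 knockdown (4 and 3 with the offsets). The E-box CACGTG, which Myc is known to bind, was in 4 of 55 promoters of ribosome biogenesis genes (7.27%) and in 10.1% of all.

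Of 60 DNA replication genes 14 were higher in Baf250A knockdown and 0 in Brd9 knockdown (median 0.45), and with the offsets 46 and 2. With each library left out, the number on the Baf250A side lay between 1 (without Baf250A replicate 2) and 10 (without Baf250A replicate 1). Orc2, of the origin recognition complex, stood at 74.4 and 102 CPM in the Baf250A libraries and 44.2 and 32.7 CPM in the Brd9 libraries (log2 fold change 1.19, SE 0.23, adjusted p = 0.00847). Of 71 genes of mitosis and cytokinesis 22 were higher in Baf250A knockdown and 0 in Brd9 knockdown (median 0.35), with 45 and 0 under the offsets and between 8 (without Baf250A replicate 2) and 26 (without Baf250A replicate 1) on the Baf250A side with a library left out. Smc4, a condensin subunit, stood at 109 and 183 CPM in the Baf250A libraries and 31.8 and 42.9 CPM in the Brd9 libraries (log2 fold change 1.96, SE 0.27, adjusted p = 0.00214). Mki67, the proliferation antigen, stood at 239.6 and 383 CPM in the Baf250A libraries and 105 and 123 CPM in the Brd9 libraries (log2 fold change 1.45, SE 0.23, adjusted p = 0.00447). Mitotic genes have a median GC content of 46.8%, below the 50.5% of all tested genes, and with the offsets the fold change of Smc4 was 1.39 and that of Mki67 1.38. In both genes Baf250A replicate 2 was well above replicate 1, and replicate 1 was still above both Brd9 libraries. Of the factors that drive entry into S phase, E2f2 stood at 43.2 and 37.9 CPM in the Baf250A libraries and 10.7 and 11.9 CPM in the Brd9 libraries (log2 fold change 1.84, SE 0.20, adjusted p = 0.000759). Ccne2, a cyclin of that step, stood at 31.9 and 57.1 CPM in the Baf250A libraries and 11.5 and 14.1 CPM in the Brd9 libraries (log2 fold change 1.80, SE 0.29, adjusted p = 0.00447), with 0.76 under the offsets, whereas its relative Ccne1 lay on the Brd9 side (−0.68) and lost that call without Brd9 replicate 2 (adjusted p = 0.24), without Baf250A replicate 1 (adjusted p = 0.0836) and without Baf250A replicate 2 (adjusted p = 0.195). Ccnd1, at 487 and 488 against 337 and 355 CPM, was not called (log2 fold change 0.49, adjusted p = 0.0527), nor was the CDK inhibitor Cdkn1a, at 245 and 206 against 294 and 346 CPM (log2 fold change −0.50, adjusted p = 0.0722). With the offsets both were called, with log2 fold changes of 0.65 and −0.28. Cdkn1c, at 2.83 and 2.9 against 2.39 and 2.51 CPM, was not called (adjusted p = 0.587). Of 40 p53 targets 9 were higher in Brd9 knockdown and 1, the kinase Plk2 (0.98), in Baf250A knockdown (median −0.29, 16 and 6 with the offsets). Housekeeping genes had 0 and 0 of 20 called in edgeR's test, with a median of 0.13, and with the offsets 4 and 1.

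**Figure D5:**
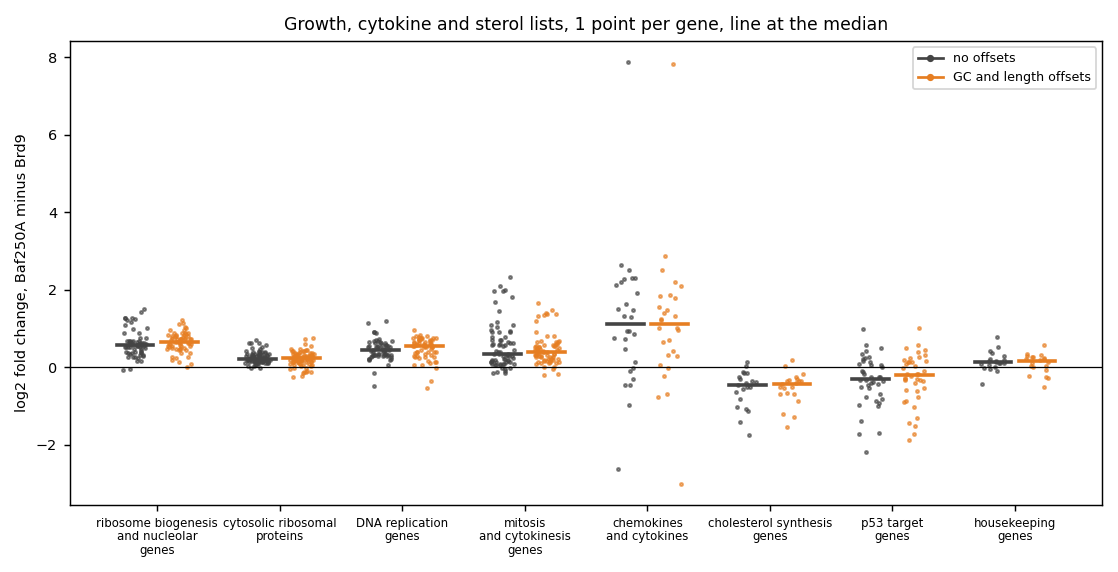
Log2 fold change (Baf250A minus Brd9) of each tested gene in 8 lists, with a point per gene and a line at the median, in grey without and in orange with the GC and length offsets. The medians of the ribosome biogenesis, replication and mitosis lists lie above 0 under both, with 0.57, 0.45 and 0.35 without offsets, and that of cholesterol synthesis lies below 0. The point near the top is Tnfsf11, whose fitted value depends on counts of 0 in the Brd9 libraries.

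Genes of lipid synthesis were called mostly on the Brd9 side. Of 21 cholesterol synthesis enzymes 7 were higher in Brd9 knockdown and 0 in Baf250A knockdown, with a median of −0.44, and with the offsets 16 and 0. With each library left out the calls higher in Brd9 knockdown numbered between 4 (without Brd9 replicate 2) and 6 (without Brd9 replicate 1). Fdps, which makes farnesyl pyrophosphate, stood at 70.5 and 60.2 CPM in the Baf250A libraries and 157 and 189 CPM in the Brd9 libraries (log2 fold change −1.41, SE 0.18, adjusted p = 0.00159). Lss, which closes the sterol rings, stood at 19.2 and 19.2 CPM in the Baf250A libraries and 40.7 and 39.7 CPM in the Brd9 libraries (log2 fold change −1.06, SE 0.18, adjusted p = 0.00559). Nsdhl (−1.13) and Tm7sf2 (−1.74), which act later in the pathway, lay on the same side. Srebf2, the sterol-sensing transcription factor, was called higher in Brd9 knockdown (−0.83), and lost that call without Brd9 replicate 2 (adjusted p = 0.0888) and without Baf250A replicate 2 (adjusted p = 0.17). Abca1, the pump that exports cholesterol, was on the opposite side at 2.18 and 3.94 against 0.415 and 0.167 CPM (log2 fold change 3.35, SE 0.51, adjusted p = 0.00359). Of 31 fatty acid synthesis and desaturation genes 9 were higher in Brd9 knockdown and 1 in Baf250A knockdown (median −0.40, 13 and 3 with the offsets), among them the desaturases Scd2 (501 and 571 against 1150.3 and 1053 CPM, log2 fold change −1.04, SE 0.16, adjusted p = 0.00417) and Scd1 (−0.98). Fatty acid oxidation had 4 of 27 on the Brd9 side and 0 on the other, near the 11.8% and 8.21% over all genes, and 10 and 4 with the offsets. Among them was the mitochondrial carrier Ucp2 at 3.43 and 3.4 against 27.7 and 27.4 CPM (log2 fold change −3.01, SE 0.22, adjusted p = 0.000168). Subunits of oxidative phosphorylation had 4 and 1 of 77 called on the Baf250A and Brd9 sides, close to or below the shares over all genes, and 18 and 2 with the offsets, under which 1 of the first 4 kept its call.

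Among the SWI/SNF subunits other than the targets, the calls without offsets were 3 of the 16 tested that are listed as shared. That list holds Smarcb1, which ncBAF lacks, so a listed subunit need not be common to cBAF and ncBAF. These 3 were higher in Brd9 knockdown (18.8%, beside 11.8% of all tested genes). With the offsets 3 of the 16 were higher in Brd9 knockdown and 5 in Baf250A knockdown, beside 19.9% and 27.1% of all tested genes. Smarcd3, also known as Baf60c, a subunit that acts with MyoD in muscle, stood at 44.8 and 33.8 CPM in the Baf250A libraries and 74.5 and 95.7 CPM in the Brd9 libraries (log2 fold change −1.11, SE 0.21, adjusted p = 0.00869). Smarcc2, a core scaffold subunit, stood at 144 and 133 CPM in the Baf250A libraries and 219 and 239 CPM in the Brd9 libraries (log2 fold change −0.72, SE 0.16, adjusted p = 0.0157). Smarca2, the ATPase that alternates with Smarca4, stood at 10.3 and 12.9 CPM in the Baf250A libraries and 25.6 and 18.9 CPM in the Brd9 libraries (log2 fold change −0.94, SE 0.24, adjusted p = 0.0259). All 3 were higher in both Brd9 libraries, and the call of Smarcc2 was lost without Brd9 replicate 2 (adjusted p = 0.0942), without Baf250A replicate 1 (adjusted p = 0.052) and without Baf250A replicate 2 (adjusted p = 0.192) and that of Smarca2 without Brd9 replicate 1 (adjusted p = 0.105) and without Baf250A replicate 1 (adjusted p = 0.0738). Arid1b, which can take the place of Arid1a, was at 72.9 and 72.3 against 66.7 and 65.3 CPM (log2 fold change 0.14, adjusted p = 0.584), and Pbrm1, the Baf180 subunit of the PBAF complex, at 80.8 and 127 against 70.8 and 53.3 CPM (log2 fold change 0.75, adjusted p = 0.0645), neither of them called. With the offsets both were called higher in Baf250A knockdown (log2 fold changes 0.32 and 0.49). Of 4 tested PBAF subunits 0 were called in edgeR's test, and 2, Pbrm1 and Phf10, were with the offsets, both higher in Baf250A knockdown.

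Ion channels that set excitability had calls on both sides, 9 of 22 higher in Brd9 knockdown and 5 in Baf250A knockdown (median −0.36, 9 and 6 with the offsets). Cacng7, a calcium channel family subunit, had 0 and 0 counts under Baf250A knockdown and 26 and 25 under Brd9 knockdown, at least 8.37-fold lower in Baf250A knockdown. Kcnmb4, a potassium channel subunit, had a log2 fold change of −2.12. The inward rectifiers Kcnj15 (3.10), Kcnj12 (2.70) and Kcnj2 (1.29) were all on the Baf250A side, where they made up 3 of the 5 calls. That of Kcnj2 was lost without Brd9 replicate 2 (adjusted p = 0.0574).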

How the data were processed

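Total RNA was extracted with TRIzol from proliferating C2C12 cells, and libraries were made at BGI for a BGISEQ-500, per the labels' protocols. The authors deposited estimated counts per gene and library, not normalised, beside the length of each gene in bases as another column, per the file headers. Per the submitters' processing notes the tools were RSEM, Bowtie2, HISAT2, StringTie, Cufflinks and DESeq2 and the build mm10, with no role stated. Their versions, and whether counting used strand, are not given in the sources used, so genes with an antisense partner have uncertain counts.

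Groups came from the sample titles. Of 24573 genes 24479 were matched to names by gene ID, 9 by accession and 85 not. Counts were rounded to whole numbers, filtered by filterByExpr (12185 genes kept), scaled by TMM (factors 0.962 to 1.05) and fitted with edgeR 4.0.16 (glmQLFit and glmQLFTest, R 4.3.3) on the 4 libraries alone. Genes were called at a Benjamini-Hochberg adjusted p below 0.05 over all tested genes. Dividing the size of a log2 fold change by the root of its F statistic gave the SE. Where both libraries of a group had 0 counts, the fold is a bound against 3 counts in each library, and where they had 1 to 3 counts together it is a ratio with an exact 95% interval. Both cover counting error only. Offsets were loess curves (span 0.3) of each library's deviation on transcript GC content (known for 99.0% of tested genes, GENCODE M21) and on log2 length. The procedure was tested on simulated data. Alternatives were other scalings and filters, DESeq2 1.42.0, limma-voom (limma 3.58.1), fits of all 8 or of the 6 knockdown libraries, a test against a fold of 1.5, the replicate number as a block, and each library left out.

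The members, the gene lists and the motifs were chosen with earlier results of these data known, so no list received a test: lists are described by counts and medians beside those of all genes. Named genes are the SWI/SNF subunits (values are printed for the targets and 5 others), the 12 largest called differences in each direction of genes averaging 5 CPM or more without overlap, up to 4 called members with the lowest p per list, 12 genes of myogenesis and growth whatever their result, and the 6 lowest p-values in each direction. Unnamed gene models, the clone name U90926 and the near-identical Tmem254 copies were passed over, which was decided with their values in view. Mef2c, 1 of the 12, did not pass the filter. Members of lists beyond these 4 were named after their values were seen. Promoters are RefSeq's, GRCm38.p6. Results for some items are not reported here.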

Additional observations from a re-analysis of the deposited data

How the results depend on the processing

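Both targets kept their direction and their call under every alternative run. The number of called genes moved by over 1.5 times under several. From 2442 (1000 higher in Baf250A knockdown and 1442 higher in Brd9 knockdown) it was 925 (278 and 647) at an adjusted p below 0.01, 897 (277 and 620) in a test against a 1.5-fold change, and 5728 (3303 and 2425) with the GC and length offsets. Calls higher in Baf250A knockdown numbered 647 with library totals alone, 585 without a filter and 632 with a minimum mean of 5 CPM, while RLE and upper-quartile scaling, DESeq2, limma-voom and the fits of 8 or of 6 libraries left each count within 1.5 times. With a library left out, 1466 to 2569 genes were called, 509 to 1287 of them higher in Baf250A knockdown and 957 to 1282 higher in Brd9 knockdown, with the lowest counts without Baf250A replicate 2 and the highest of each without Baf250A replicate 1. The larger number on the Brd9 side was gone without Baf250A replicate 1 and turned over with the offsets. In these fits the lone library is assumed to vary like the pair of the other group, and edgeR's prior degrees of freedom were infinite.

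Deviations of same-numbered libraries were negatively correlated across genes (−0.51, and −0.19 after the offsets), and the main fit pairs no libraries. Such a correlation cannot decide whether same-numbered libraries were handled together. The replicate block gave 1466 calls (555 and 911), the replicate block with GC and length offsets 5014 (2815 and 2199), and a crossed replicate block, added after the data were seen, 7722 (3966 and 3756). Of the 217 named fold changes none changed sign, and 24 lost their call under the replicate block, 41 at an adjusted p below 0.01, 40 against a 1.5-fold change, 16 without a filter, 9 in DESeq2 and 16 to 18 with a library left out. The medians of 46 lists, printed or not, were followed through the alternatives, and 12 changed sign under some alternative, the largest of them 0.31 in size. They are the medians of AP-1 factors, ERK feedback genes, Notch receptors, Wnt ligands, cytokine receptors, collagens, myogenic regulators, smooth muscle, insulin-like growth factor, HOX, Polycomb and prostaglandin genes. Lists outside the 46 changed sign too, among them laminins (−0.16, and 0.11 with the offsets) and ncBAF subunits (−0.29, and 0.14 with the offsets). The causes were not tested.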

Other observations

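Several lists with few calls or with calls on both sides hold single genes that differed widely. Among interferon-stimulated genes 3 of 40 were higher in Baf250A knockdown and 4 in Brd9 knockdown (median −0.13, 4 and 8 with the offsets), close to the shares over all genes. Gbp2, an interferon-induced GTPase, stood at 2.94 and 2.57 CPM in the Baf250A libraries and 24.3 and 18.4 CPM in the Brd9 libraries (log2 fold change −2.95, SE 0.26, adjusted p = 0.000289), and Xaf1, an apoptosis factor, had a log2 fold change of −2.45. Of 18 prostaglandin and leukotriene genes 3 and 4 were called on the Baf250A and Brd9 sides (6 and 5 with the offsets). Alox5, the lipoxygenase that starts leukotriene synthesis, stood at 26.2 and 20.1 CPM in the Baf250A libraries and 82.3 and 99.1 CPM in the Brd9 libraries (log2 fold change −1.97, SE 0.21, adjusted p = 0.000646) and Ptgis, the prostacyclin synthase, had −1.62, opposite in direction to Ptgs2. Plat, the tissue plasminogen activator, was higher in Brd9 knockdown at 20.1 and 20.5 against 60.8 and 58 CPM (log2 fold change −1.55, SE 0.18, adjusted p = 0.000965). Complement-related C1qtnf3, a secreted C1q-like protein, stood at 1.2 and 1.2 CPM in the Baf250A libraries and 12.6 and 11.2 CPM in the Brd9 libraries (log2 fold change −3.30, SE 0.26, adjusted p = 0.000219).

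Chromatin regulators outside SWI/SNF had more calls with the offsets than without, as did all tested genes. The shares over all tested genes were 8.21% (Baf250A side) and 11.8% (Brd9 side) without offsets, and 27.1% and 19.9% with them. Of 34 Polycomb genes 3 were higher in Baf250A knockdown and 2 in Brd9 knockdown (median 0.05, 10 and 1 with the offsets), and of 34 genes of the CHD, ISWI and INO80 remodellers 3 and 1 (median 0.09, 16 and 2 with the offsets). The PRC2 methyltransferase Ezh1 stood at 13 and 12.1 CPM in the Baf250A libraries and 28.1 and 29.4 CPM in the Brd9 libraries (log2 fold change −1.19, SE 0.19, adjusted p = 0.00459). The other Polycomb gene called higher in Brd9 knockdown was Phf1. On the Baf250A side lay the PRC2 core subunit Suz12 (1.38) and the PRC2 accessory proteins Epop (1.24) and Phf19 (1.14). Of 18 tested HOX genes 0 were higher in Baf250A knockdown and 2, Hoxc10 (−0.65) and Hoxa7 (−0.73), in Brd9 knockdown (3 and 2 with the offsets). Hoxc10 lost its call without Brd9 replicate 1 (adjusted p = 0.0743), without Brd9 replicate 2 (adjusted p = 0.118), without Baf250A replicate 1 (adjusted p = 0.0962) and without Baf250A replicate 2 (adjusted p = 0.212), and Hoxa7 without Brd9 replicate 1 (adjusted p = 0.132), without Brd9 replicate 2 (adjusted p = 0.189), without Baf250A replicate 1 (adjusted p = 0.0833) and without Baf250A replicate 2 (adjusted p = 0.24). Imprinted growth genes had 2 and 5 of 15 called (3 and 7 with the offsets), with Peg3 at 29.5 and 37.5 against 126 and 89.8 CPM (log2 fold change −1.69, SE 0.22, adjusted p = 0.00176) on the Brd9 side and Plagl1 (1.93) on the Baf250A side. Among transporters and metabolic enzymes, Gpx3, a secreted glutathione peroxidase (−1.44), and Pfkp, a phosphofructokinase (−1.59), were higher in Brd9 knockdown. Of 46 ATF4 and unfolded protein response genes, 7 were higher in Brd9 knockdown (15.2%) and 1 in Baf250A knockdown (2.17%). The shares over all tested genes were 11.8% and 8.21%, and with the offsets the list's counts were 11 and 7. Those on the Brd9 side included Chac1 (−1.67) and Aldh1l2 (−1.52).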
